A study of Mus musculus with 4 samples.

Results

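The genes described here are 40 genes of the skeletal muscle contractile apparatus and of its calcium handling, as measured in whole mouse ears inflamed by a contact allergen. They were found by matching the gene names of the non-control spots on the arrays, and all 40 of the 40 names were present, among 35019 gene names in all. The 4 ears were taken 48 h after they had been painted with 2,4-dinitrofluorobenzene (DNFB), a hapten that causes contact hypersensitivity. The 2 wild-type mice were RelAfl/fl, so they carried the floxed allele of RelA, a subunit of NF-kB, without a recombinase. The 2 mutant mice were K14Cre RelAfl/fl, so they carried the same floxed allele and a Cre recombinase under the keratin 14 promoter. That promoter is active in basal keratinocytes of the epidermis and not in muscle, and the carrying of the recombinase and the deletion of RelA cannot be told apart in these groups. An ear without DNFB was not analysed here, and ages were not given in the sources used here.

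Striated muscle contracts when thick filaments of myosin pull on thin filaments of actin, and both are held in register by the Z-disc, the M-band and the giant protein titin. A signal at the cell membrane opens calcium stores in the sarcoplasmic reticulum, calcium binds troponin C on the thin filament, and a calcium pump then refills the stores. Many of these proteins exist as a fast and a slow isoform from separate genes, so a fast fibre and a slow fibre carry different myosins, troponins and pumps. The ear pinna of the mouse holds thin skeletal muscles under the skin. Of the 40 genes, 14 were taken as fast isoforms, 9 as slow isoforms, 16 as shared by both fibre types, and 1, Myh8, as a developmental myosin, from textbook knowledge. Several are not restricted to skeletal muscle: the slow isoforms Myh7, Myl2, Myl3, Tnnc1 and Casq2 are also used by the heart, Tpm2 and Des by smooth muscle, and Tpm3 by many cell types.

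The 40 genes were read by 60 probes of 60 bases each, on 69 spots of each array, and probe positions are those of mouse build mm9 in the file headers. A total of 26 genes had 1 probe and 14 had several. Positions of 10 probes, from 10 genes, covered more than 60 bases of the genome, so these probes join stretches that are apart in the genome; a gene model of this build was not used here. The longest run of bases that a probe shared with a probe of another of the 40 genes was 13. Probes were compared with probes only, so whether a probe also matches the transcript of another isoform gene was not tested. The sequences shown include probes of the fast genes Actn3 and Casq1 and of the slow genes Tnnc1 and Tnni1. Also shown is the pair of Tnnt3 probes that overlap by 27 bases, which are in capitals. The first Tnnt3 probe lies at chr7:149698467-149698526 and the second at chr7:149698500-149700262, both on the plus strand. The Actn3 probe lies at chr19:4861727-4862212 and the Casq1 probe at chr1:174140602-174142105, both on the minus strand, and these are fast genes. The Tnnc1 probe lies at chr14:32023360-32023776 and the Tnni1 probe at chr1:137705328-137706203, both on the plus strand, and these are slow genes.
Tnnt3 first probe: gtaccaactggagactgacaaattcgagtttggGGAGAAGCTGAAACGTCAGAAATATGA
Tnnt3 second probe: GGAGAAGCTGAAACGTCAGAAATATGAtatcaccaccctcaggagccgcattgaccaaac
Actn3 probe: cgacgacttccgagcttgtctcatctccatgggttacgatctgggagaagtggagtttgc
Casq1 probe: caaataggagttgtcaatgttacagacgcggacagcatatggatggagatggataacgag
Tnnc1 probe: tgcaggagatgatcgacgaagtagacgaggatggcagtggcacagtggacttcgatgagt
Tnni1 probe: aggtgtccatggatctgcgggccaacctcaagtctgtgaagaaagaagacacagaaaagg

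Each value below is the log2 of a probe's processed intensity minus the 75th percentile of its array, and the 4 values of a gene are given for wild-type mice 1 and 2 and then mutant mice 1 and 2. The mouse numbers are those of the labels and carry no order. Where a gene had several probes, the brightest tested probe stands for it. Array medians of processed intensity lay between 47.2 and 54.6, the share of spots well above background was 61.2% to 64.3%, and none (0) was saturated. The array of mutant 2 stood apart. Across genes, its Pearson correlation with the other arrays was between 0.983 and 0.988, against 0.993 among the other 3. The mutant 2 array also had a damaged corner, described with the processing. Genes read in that corner were kept in these correlations, and correlations without them were not calculated. Of the spots that read the 40 genes, 2 lay in that corner, the spot of Tnnc2 and that of a Myh8 probe too dim to be tested. Rela stood at 4.48 and 4.60 in the wild-type ears and at 4.59 and 4.72 in the mutant ears, so it was not lower in either mutant than in both wild types, and on the mutant 2 array its spot was in the damaged corner. Whether its probe lies in the floxed part of the gene is not given in the sources used here.

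All 40 genes were well above background on all 4 arrays and were tested with limma in 1 fit over 23753 genes. None of the 40 passed an adjusted p of 0.05, and the lowest adjusted p was 0.822; over all genes 0.00842% were called lower in the mutants and 0.00842% higher. At an unadjusted p under 0.05 the count was also 0 of 40, where 3.55% of all genes were lower and 2.95% higher. The differences between mutant and wild-type ears lay on 1 side of zero in most of the 40 genes. Of these, 38 of 40 were below 0, against 11051 of the 23753 genes tested, with a median of -0.23 against 0.014 over all genes. The standard errors of the 40 differences were wide for such sizes, up to 0.47 for Myh7. These tests use the spread between 2 mice of each genotype, and whether the mice were littermates is not given in the sources used here.

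Most of the common shift came from 1 ear. Mutant 2 had the lowest value of the 4 ears in 37 of the 40 genes, against 22.1% of all genes, and the exceptions were Tpm2, Tpm3 and Casq2, which were lowest in wild type 1. Mutant 2 stood below mutant 1 in 40 of 40 genes, with a median difference of -0.51, a fold of 1.43 between mice of the same genotype. Over all genes it stood below mutant 1 in 11362 of 23753, with a median difference of 0.011. With mutant 2 left out, the median of the 40 genes was 0.026 and 17 of 40 were below 0; with mutant 1 left out it was -0.53 and the lowest adjusted p was 0.211. Both mutants were below both wild types in 7 genes (Actn3, Pvalb, Myh4, Atp2a1, Casq1, Eno3 and Myl3), where 17.4% of all genes were so placed. Both mutants were above both wild types in 1 gene, Tpm2, where 18.9% of all genes were. In a whole ear, less muscle in the sample and less of these transcripts per muscle fibre cannot be told apart.

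**Figure D1:**
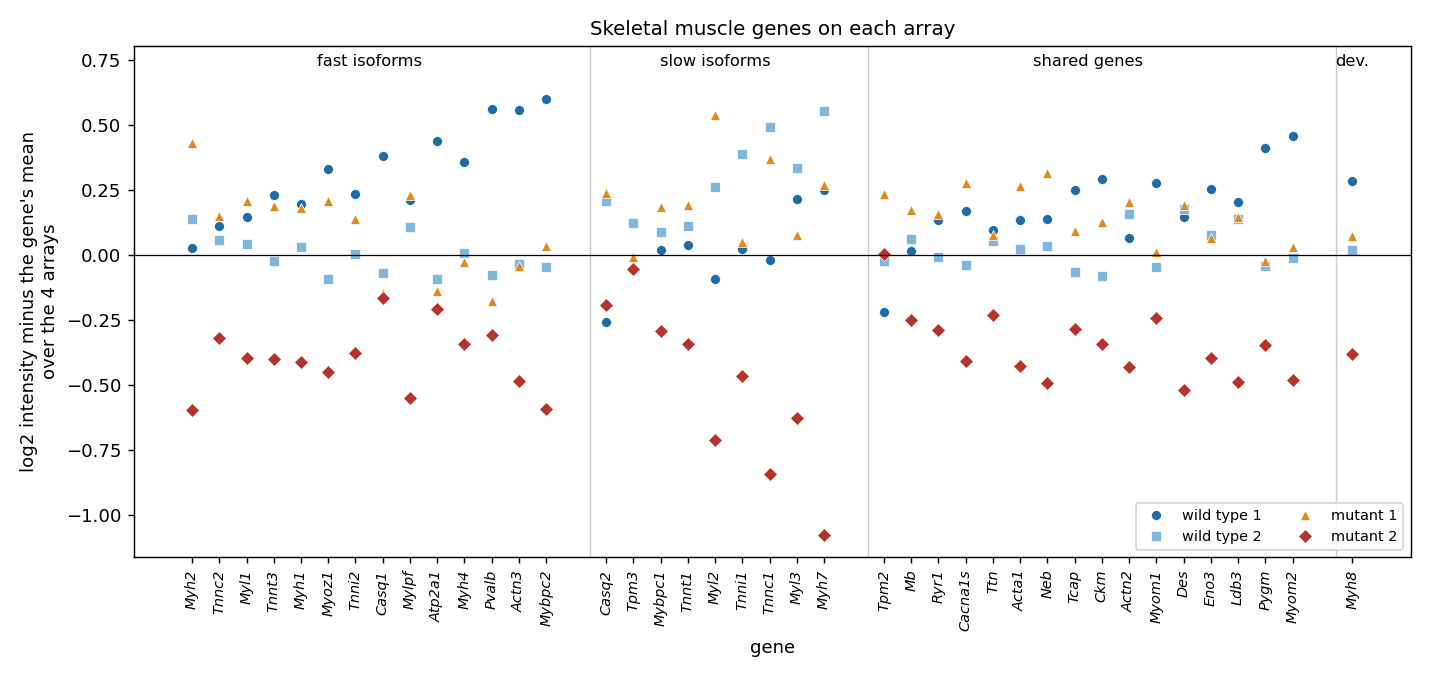
Log2 intensity of each of the 40 genes on each array, minus the mean of that gene over the 4 arrays (y axis), with genes on the x axis grouped as fast, slow and shared and with the developmental myosin Myh8 (dev.) last; a marker is 1 mouse. The diamonds of mutant 2 are the lowest of the 4 markers in 37 of 40 genes, and the dark circles of wild type 1 lie above the light squares of wild type 2 in 13 of 14 fast genes and in 0 of 9 slow genes.

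The thick filament was represented by 11 genes, and the difference was below 0 in 11 of 11, with a median of -0.31. Myh4, the heavy chain of the fastest fibres of the mouse (type IIB), stood at 6.36, 6.01, 5.97 and 5.66. Its wild-type values were both above its mutant values, and the difference was -0.37 ± 0.19 (SE, n = 2 and 2; limma, adjusted p = 0.842). Mybpc2, fast myosin binding protein C, read 0.66, 0.014, 0.098 and -0.53. Wild type 1 was the high ear and mutant 2 the low one, wild type 2 and mutant 1 lay between, and the groups overlapped (-0.55 ± 0.32). Mylpf, the regulatory light chain of fast muscle, was at -1.74, -1.84, -1.72 and -2.50. Here mutant 2 alone was apart from 3 close values, and the difference was -0.32 ± 0.28. Its processed intensities were low, from 104 to 199, and with another background correction (normexp) the difference was -0.18. Myh8, the perinatal heavy chain, read 6.88, 6.61, 6.66 and 6.21 on its brightest probe. There mutant 1 was inside the wild-type range and the difference was -0.31 ± 0.20. The other tested Myh8 probe was far dimmer, at -1.08, -1.19, -0.92 and -1.69, with mutant 1 highest and a difference of -0.18 ± 0.28. Whether the brightest probe also reads other heavy chains was not tested.

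Slow fibres use their own thick filament genes, of which 4 were read. Myh7, the heavy chain of slow fibres, read 1.50, 1.80, 1.52 and 0.17. Mutant 1 was inside the wild-type range while mutant 2 was 2.54-fold below mutant 1, and the difference between genotypes was -0.81 ± 0.47 (limma, adjusted p = 0.855), the largest in size of the 40. Myl3, the essential light chain of slow muscle, read 0.71, 0.83, 0.57 and -0.13. Both mutants were below both wild types, with a difference of -0.55 ± 0.26 and an adjusted p of 0.822, the lowest among the 40 genes. Myl2, the slow regulatory light chain, stood at 1.02, 1.37, 1.65 and 0.40. Mutant 1 was the highest and mutant 2 the lowest ear, 2.38-fold apart, around a difference of -0.17 ± 0.44. The remaining 4 thick filament genes (Myh1, Myh2, Myl1 and Mybpc1) differed by between -0.23 and -0.11, and each was lowest in mutant 2. Among them Myh2, the heavy chain of the fast oxidative type IIA fibre, read 3.79, 3.90, 4.19 and 3.17. It was the only fast gene with wild type 1 below wild type 2, and its mutants were 2.04-fold apart.

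Among the 10 thin filament genes 9 were below 0, with a median of -0.17, and the groups were apart in the lower direction in 0. Tnnc1, the troponin C of slow muscle, was at -2.06, -1.56, -1.68 and -2.89. Mutant 1 lay inside the wild-type range and mutant 2 was 2.31-fold below mutant 1, and the difference was -0.47 ± 0.45. Processed intensities of Tnnc1 were low, from 79.5 to 212, and with normexp background correction the difference was -0.30. Tnni1, the slow inhibitory troponin subunit, read -0.57, -0.20, -0.54 and -1.05, again with mutant 1 between the wild types (-0.41 ± 0.23). Tnnt1, the slow subunit that anchors troponin on tropomyosin, read 4.40, 4.48, 4.56 and 4.02, and only mutant 2 was below the wild types (-0.15 ± 0.21). The fast partners Tnnc2, Tnni2 and Tnnt3 differed by -0.17, -0.24 and -0.21, and each was lowest in mutant 2. The overlapping Tnnt3 probes printed above gave differences of -0.21 ± 0.24 and -0.22 ± 0.26. Both were read on the same 4 arrays, and these standard errors reflect the spread between mice, so they do not measure how well the probes match. Tnnc2 was the gene whose spot lay in the damaged corner of the mutant 2 array; it read 6.73, 6.67, 6.77 and 6.30. Acta1, skeletal actin, and Neb, the ruler of the thin filament, differed by -0.16 and -0.18.

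Tropomyosins block the myosin sites on actin until calcium is bound. Tpm2, and Tpm3 on its brightest probe, were the only thin filament genes not lowest in mutant 2. This did not hold for tropomyosins as a class. Tpm1, listed here with the smooth muscle genes, was lowest in mutant 2, at 5.25 against 5.91 in mutant 1 (-0.16 ± 0.25 between genotypes). Tpm2 read 3.44, 3.64, 3.90 and 3.67, with both mutants above both wild types and a difference of 0.24 ± 0.14 (limma, adjusted p = 0.856). Its other probe read 3.48, 3.68, 3.85 and 3.56, where the groups overlapped. Tpm3 read 6.36, 6.54, 6.40 and 6.36 on its brightest probe, with a difference of -0.064 ± 0.12. The other 2 Tpm3 probes, which lie elsewhere in the gene, read -0.18, 0.033, -0.28 and -0.80 and, on the last, -2.27, -1.99, -2.21 and -2.97. Their differences between genotypes were -0.47 ± 0.22, with both mutants below both wild types, and -0.46 ± 0.29. On both of these mutant 2 was the lowest ear, with mutant 2 minus mutant 1 at -0.53 and -0.77, while on the brightest probe it was -0.046. Which transcripts of Tpm3 each probe reads was not tested.

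The Z-disc, M-band and titin group held 9 genes, of which 9 were below 0 and 9 lowest in mutant 2, with a median of -0.24. Actn3, the alpha-actinin of fast fibres, which crosslinks actin at the Z-disc, read 0.68, 0.090, 0.081 and -0.36. The mutants were both below the wild types, but mutant 1 was close to wild type 2, and the difference of -0.53 ± 0.27 became -0.23 with wild type 1 left out. Actn2, the alpha-actinin of all fibres, read 2.11, 2.20, 2.24 and 1.61, a difference of -0.22 ± 0.24 with mutant 2 alone below. Myom2 and Myom1, which link thick filaments at the M-band, read 3.78, 3.31, 3.36 and 2.85 and, for Myom1, 0.70, 0.38, 0.44 and 0.18. In both, wild type 1 was highest, mutant 2 lowest and the other ears close together, with differences of -0.45 ± 0.25 and -0.23 ± 0.17. Ldb3, a Z-disc scaffold, read 0.82, 0.76, 0.76 and 0.13, 3 close values and mutant 2 apart (-0.34 ± 0.24). Myoz1, Tcap and Ttn, which hold the Z-disc and titin together, differed by between -0.24 and -0.15.

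Des, the intermediate filament that ties neighbouring Z-discs to each other, was printed on 10 spots of each array and so shows the measurement error within an array. Its means were 1.51, 1.54, 1.56 and 0.85, and the SD over the 10 spots was between 0.04 and 0.07 on each array. The 10 spots of mutant 2 ran from 0.77 to 0.92, and the lowest spot on any other array was 1.43. The gap between mutant 2 and the other ears was thus many times the spread between spots, while mutant 1 lay within the range of the wild-type spots. Between genotypes the difference was -0.32 ± 0.26, and with mutant 2 left out it was 0.031. Spots of 1 array are not replicates of the genotype, and the test over mice did not pass (limma, adjusted p = 0.877).

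Of the 6 calcium genes 5 were below 0, with a median of -0.22, and in 3 of them both mutants were below both wild types, a placing that 17.4% of all genes had. Pvalb, parvalbumin, a calcium buffer of fast fibres that speeds relaxation, read 3.88, 3.25, 3.14 and 3.01. Atp2a1, the fast calcium pump SERCA1, read 2.56, 2.03, 1.98 and 1.91. Casq1, the calsequestrin that stores calcium in fast fibres, read -0.021, -0.47, -0.55 and -0.57. In each of these 3 fast genes wild type 1 was high, and wild type 2 and both mutants were close together. Mutant 2 minus mutant 1 was -0.13, -0.069 and -0.019 in them, against a median of -0.51 over the 40 genes. The differences between genotypes were -0.49 ± 0.24, -0.35 ± 0.21 and -0.31 ± 0.18, and without wild type 1 those of Pvalb and Atp2a1 were -0.17 and -0.080. The other Pvalb probe read 2.97, 2.36, 2.21 and 2.17, the same order of ears.

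The slow and shared calcium genes ordered the ears in other ways. Casq2, the calsequestrin of slow fibres, read -2.40, -1.94, -1.91 and -2.34. It was low in wild type 1 and mutant 2 and high in the other ears, with a difference of 0.049 ± 0.23. Ryr1, the calcium release channel, and Cacna1s, the voltage sensor that opens it, differed by -0.13 ± 0.19 and -0.13 ± 0.26, and both were lowest in mutant 2 and highest in mutant 1.

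The 4 energy and oxygen genes were all below 0 and all lowest in mutant 2, with a median of -0.27. Pygm, muscle glycogen phosphorylase, read 1.64, 1.19, 1.21 and 0.88, with wild type 1 high and mutant 2 low (-0.37 ± 0.21). Eno3, the muscle enolase of glycolysis, read 4.81, 4.64, 4.62 and 4.16. Its mutants were both below its wild types, with mutant 1 close to wild type 2, and the difference was -0.33 ± 0.19. Ckm, muscle creatine kinase, and Mb, the oxygen store myoglobin, differed by -0.21 and -0.077.

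**Figure D2:**
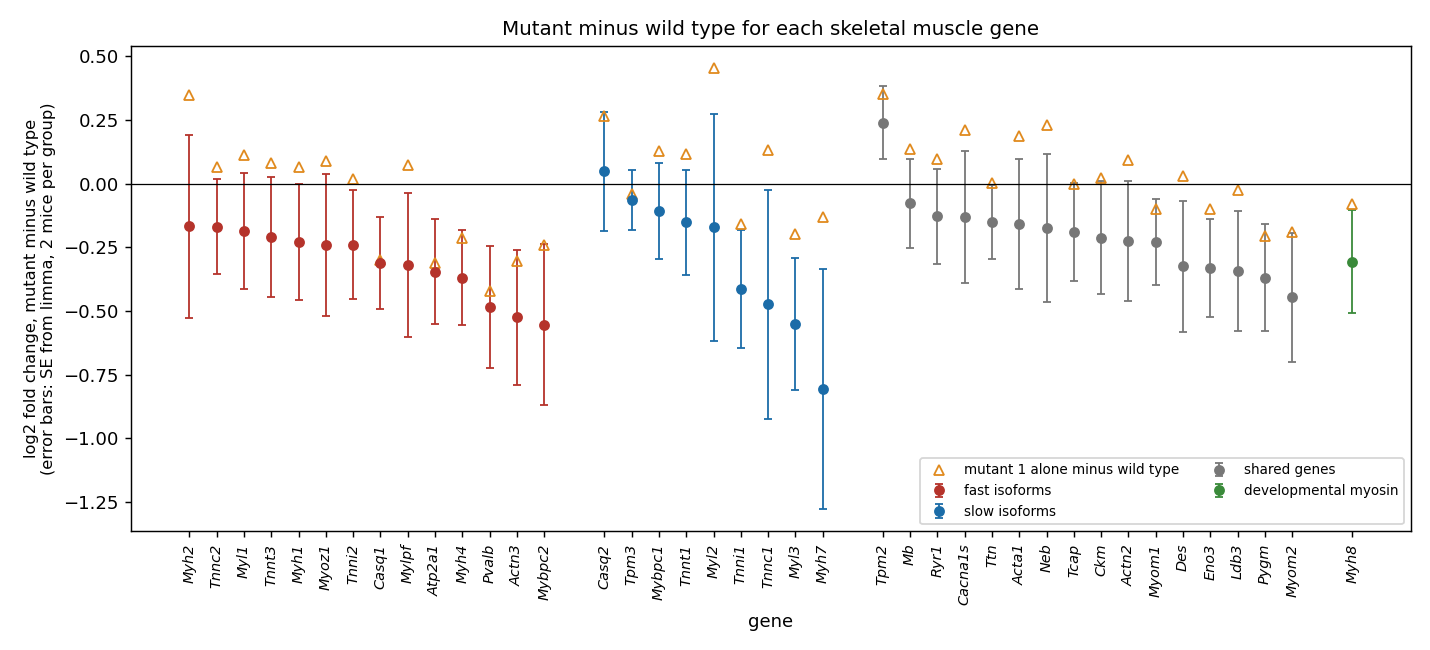
Log2 fold change of each gene, mutant minus wild type (y axis, 2 mice per group), with the standard error from limma as bars; filled circles are coloured by fibre class and open triangles show mutant 1 alone minus the wild-type mean. The circles are below 0 in 38 of 40 genes, while the triangles are below 0 in 17 of 40.

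The contrast of fast and slow isoforms was looked at as a difference between ears, since levels of different probes cannot be compared. Between genotypes the median difference was -0.28 over the 14 fast genes, -0.17 over the 9 slow genes and -0.20 over the 16 shared genes. With all tested probes of a gene averaged in place of the brightest, the slow median was -0.33 and the fast median -0.31. By the brightest probe the fast minus slow median was -0.10. It took the other sign without wild type 1 (0.20), without mutant 1 (0.14) and with all probes of a gene averaged (0.016). No direction between fast and slow genes can be read between the genotypes from these values.

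Fast and slow genes did part between the 2 wild-type ears. Wild type 1 was above wild type 2 in 13 of 14 fast genes and in 0 of 9 slow genes, where 44.7% of all genes had wild type 1 above; the shared genes lay between, at 12 of 16. The median difference of wild type 1 minus wild type 2 was 0.30 over the fast genes, -0.30 over the slow genes and 0.13 over the shared genes. Among fast genes it was widest in Mybpc2, a fold of 1.57, in Pvalb, a fold of 1.55, and in Actn3, a fold of 1.51. Among slow genes it was widest in Tnnc1 and Casq2, whose wild type 1 values were 0.70 and 0.72 of those of wild type 2. Both genes were dim, with processed intensities of at most 212 and 165 on any array. Counted over every tested probe, a count chosen after seeing the data, wild type 1 was above wild type 2 in 16 of 17 fast probes, 0 of 13 slow probes and 16 of 25 shared probes. These are 2 mice of 1 genotype and the lists were described after earlier results were known, so the split is a description of 2 ears with no test.

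The same split was not seen between the mutants. Mutant 2 was below mutant 1 in 14 of 14 fast and 9 of 9 slow genes, with medians of -0.55 and -0.53. As a deviation of each gene from its own mean over the 4 ears, the fast median minus the slow median was 0.26 in wild type 1, -0.27 in wild type 2, -0.048 in mutant 1 and 0.067 in mutant 2. The wild-type values were thus the outermost and both mutants lay between them. With normexp background correction these values were 0.29, -0.27, -0.075 and -0.024, and the counts of fast and slow genes stayed at 13 of 14 and 0 of 9. With quantile normalization 1 of 9 slow genes had wild type 1 above, and with centring on the array median the fast count was 12 of 14.

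**Figure D3:**
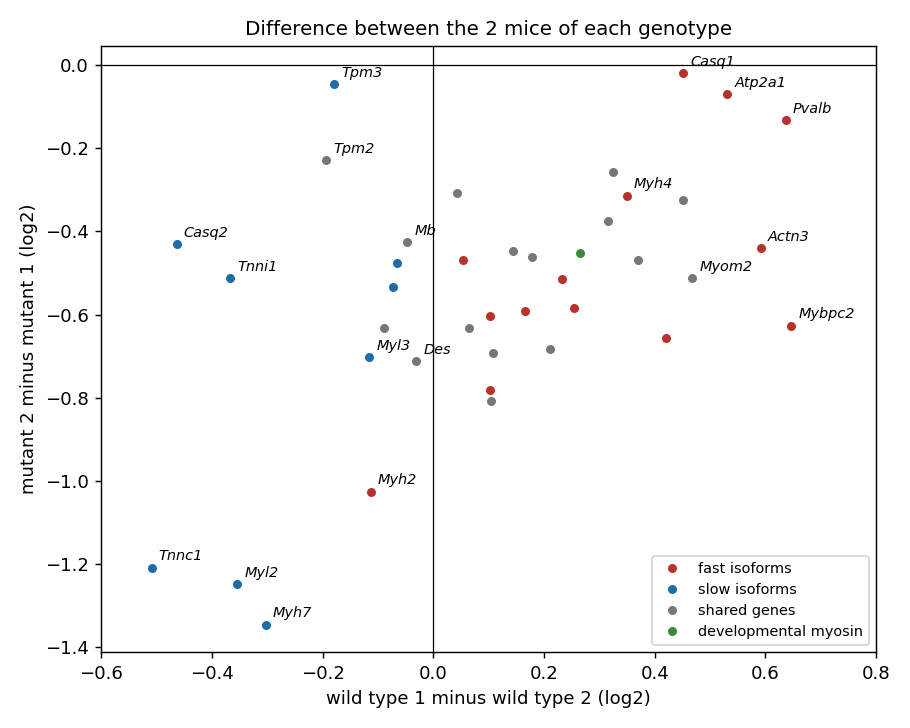
Each point is 1 of the 40 genes: the x axis is wild type 1 minus wild type 2 and the y axis is mutant 2 minus mutant 1, both as log2 differences, coloured by fibre class. All 40 points lie below 0 on the y axis; the fast genes lie right of 0 on the x axis in 13 of 14 cases, the exception being Myh2, and the slow genes lie left of 0 in 9 of 9.

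Values of the single probes were compared next. Of the 60 probes 57 were tested, 0 were called (lowest adjusted p 0.770, limma) where 0.0208% of all probes were, and 52 of 57 were lowest in mutant 2, against 22.2% of all probes. The 3 probes not tested, 2 of Myh8 and 1 of Myl2, were not well above background on both arrays of either group. Ttn, the giant spring of the sarcomere, had 4 probes, with differences of -0.15, -0.18, -0.21 and -0.28. The 3 probes of Neb differed by -0.18, -0.11 and -0.077, and mutant 2 minus mutant 1 was -0.81, -0.84 and -0.80 on them. Myl1, the fast essential light chain, differed by -0.19 ± 0.23 on its brightest probe and by -0.56 ± 0.26 on the other, where both mutants were below both wild types. The second probe of Actn2 was an exception: it was dim, well above background on 3 of 4 arrays, and its difference was 0.33 ± 0.25.

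To set sequence beside these values, the 250 bases before the transcription starts of the 40 genes were searched for the letters that muscle factors bind. RefSeq promoters on GRCm38.p6 were found for 33 of the 40 genes, in 41 entries. The E-box, CANNTG, the site of MyoD family proteins, was found in 85.4% of these entries and in 66.2% of the 32851 entries of all genes. The SRF box (CArG box), bound by serum response factor, was found in 14.6% against 1.47%. The MEF2 box was found in 2.44% against 0.508%, and TATAAA in 17.1% against 12.4%. For the SRF box these were 6 entries of 5 genes, and the overlapping Ldb3 entries held the same box. For the MEF2 box it was 1 entry, that of Ttn. The E-box, SRF box and MEF2 box read the same on both strands and were counted once, TATAAA was searched on both strands, and E-boxes and SRF boxes did not overlap in these entries. All 13 slow entries and 8 of 11 fast entries held an E-box. A match is a run of letters and not a measured site, and several entries of 1 gene can overlap. A fast and a slow gene are shown with E-boxes and SRF boxes in capitals: Myh4, with 2 E-boxes and 1 SRF box, at chr11:67237562-67237811, and Tnni1, with 4 E-boxes and 0 SRF boxes, at chr1:135799171-135799420, both on the plus strand of GRCm38.p6.
Myh4 promoter: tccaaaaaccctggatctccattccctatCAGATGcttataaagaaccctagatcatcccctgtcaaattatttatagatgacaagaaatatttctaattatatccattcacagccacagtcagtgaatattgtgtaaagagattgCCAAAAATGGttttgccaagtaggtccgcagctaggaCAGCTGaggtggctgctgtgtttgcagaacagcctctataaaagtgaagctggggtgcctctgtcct
Tnni1 promoter: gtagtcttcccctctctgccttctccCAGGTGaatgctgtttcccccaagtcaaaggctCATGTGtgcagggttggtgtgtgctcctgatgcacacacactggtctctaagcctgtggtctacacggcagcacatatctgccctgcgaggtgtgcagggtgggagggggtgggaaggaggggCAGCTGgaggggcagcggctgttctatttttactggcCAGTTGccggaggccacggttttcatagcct

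Other genes of muscle, from lists of 100 genes outside the 40, were read for comparison. Of these 94 were tested and 0 were called, 69 were below 0 with a median of -0.15, and mutant 2 was lowest in 71 of 94. The 32 further sarcomere genes had a median of -0.15 and 27 were lowest in mutant 2; the 4 with the largest differences were Actc1 (-0.73 ± 0.29), Trim54 (-0.54 ± 0.19), Xirp2 (0.36 ± 0.49) and Tmod4 (-0.36 ± 0.17). Actc1, cardiac actin, read 0.78, 0.053, -0.51 and -0.13, so that mutant 1 was its lowest ear. The 13 further triad and calcium genes had a median of -0.14, led in size by Camk2a (0.75 ± 0.62), Sln (-0.34 ± 0.20), Mylk2 (-0.32 ± 0.24) and Cacnb1 (-0.28 ± 0.16). Camk2a read -3.24, -3.78, -3.63 and -1.88, so mutant 1 was inside the wild-type range and mutant 2 alone was high. Sln, sarcolipin, which restrains the calcium pump, was lowest in mutant 2 at 2.66, against 3.18 in mutant 1. The 18 further energy genes had a median of -0.24, led by Pgam2, Adssl1, Ppargc1a and Pfkm, at -0.43, -0.38, -0.32 and -0.29. The 17 genes of the muscle membrane and the nerve-muscle synapse had a median of -0.10, led by Mlip (-0.32), Chrne (0.28), Chrnb1 (-0.28) and Sgcd (-0.28).

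The 14 regulators of muscle formation and growth had a median difference between genotypes of 0.036, the nearest of the muscle lists to that over all genes. Their mutant 2 values were still low: 7 of 14 were lowest in mutant 2, against 22.1% of all genes. Mutant 2 was below mutant 1 in 11 of 14, with a median of -0.25, against 11362 of 23753 and a median of 0.011 over all genes. Pax7, the factor of muscle stem cells, read -5.36, -5.58, -4.96 and -4.98, a difference of 0.50 ± 0.12 (limma, adjusted p = 0.588). Both mutants were above both wild types, a placing that 18.9% of all genes had. These values are very low, about as low as those of the dim second Actn2 probe (-5.78, -5.13, -5.06 and -5.21). Myog, myogenin, which drives differentiation, read -3.60, -3.08, -2.18 and -3.65, with mutant 1 the high ear (0.42 ± 0.53). Sox6 and Mef2c, factors of fibre type and differentiation, differed by -0.38 ± 0.14 and -0.23 ± 0.10. Whether these differ from the 40 contractile genes was not tested.

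Markers of other cells were read on the same ears, and their part in the muscle values was not tested. Of the 12 smooth muscle genes 10 were tested, with a median of -0.058 and 4 of 10 lowest in mutant 2; Ckb and Smtn differed by -0.34 and 0.22. The 7 tested genes of that list that define smooth muscle had a median of 0.019, with 2 of 7 lowest in mutant 2; the rest of the list, Ckb, Synpo2 and Tpm1, was below 0 in each gene. Of the 9 heart markers 7 were tested, Myl7 and Ryr2 being too dim, with a median of -0.073 and 1 of 7 lowest in mutant 2. Nppb and Myh6 differed by 0.98 and -0.86, and Myh6 was low on every array, at -4.13, -4.22, -4.60 and -5.47. Actc1 is in this list and also among the further sarcomere genes above. The 12 adipocyte genes had a median of -0.28, 12 of 12 were below 0, against 11051 of the 23753 genes tested, and 9 were lowest in mutant 2, with Lpl and Cidec at -0.45 and -0.41. The 7 leukocyte genes had a median of -0.37 with both mutants below both wild types in 7 of 7, against 17.4% of all genes, led by Cd53 and Coro1a at -0.41 and -0.38. In these lists the deviations of mutant 1 were below 0 as well, at medians of -0.089 for adipocyte and -0.098 for leukocyte genes, while mutant 1 stood at 0.15 over the 40 muscle genes and mutant 2 at -0.40. Red blood cell genes separated the ears another way: over 5 genes wild type 1 was the highest ear in 5, against 5871 of all 23753, with a median deviation of 0.92, and Alas2 and Hbb-b2 differed by -0.84 and -0.76. Cartilage (12 genes, 0.10), fibroblast (10, 0.044), endothelial (9, -0.11), Schwann cell (8, 0.0089) and basal keratinocyte genes (7, 0.099) had medians nearer to 0. Their largest differences were in Cnmd and Col9a3 (0.31 and 0.28), Dpt and Col3a1 (0.13 and 0.10), Emcn and Vwf (-0.44 and 0.22), Ncmap and Sox10 (-0.35 and 0.20), and Krt15 and Krt14 (-0.74 and 0.24).

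**Figure D4:**
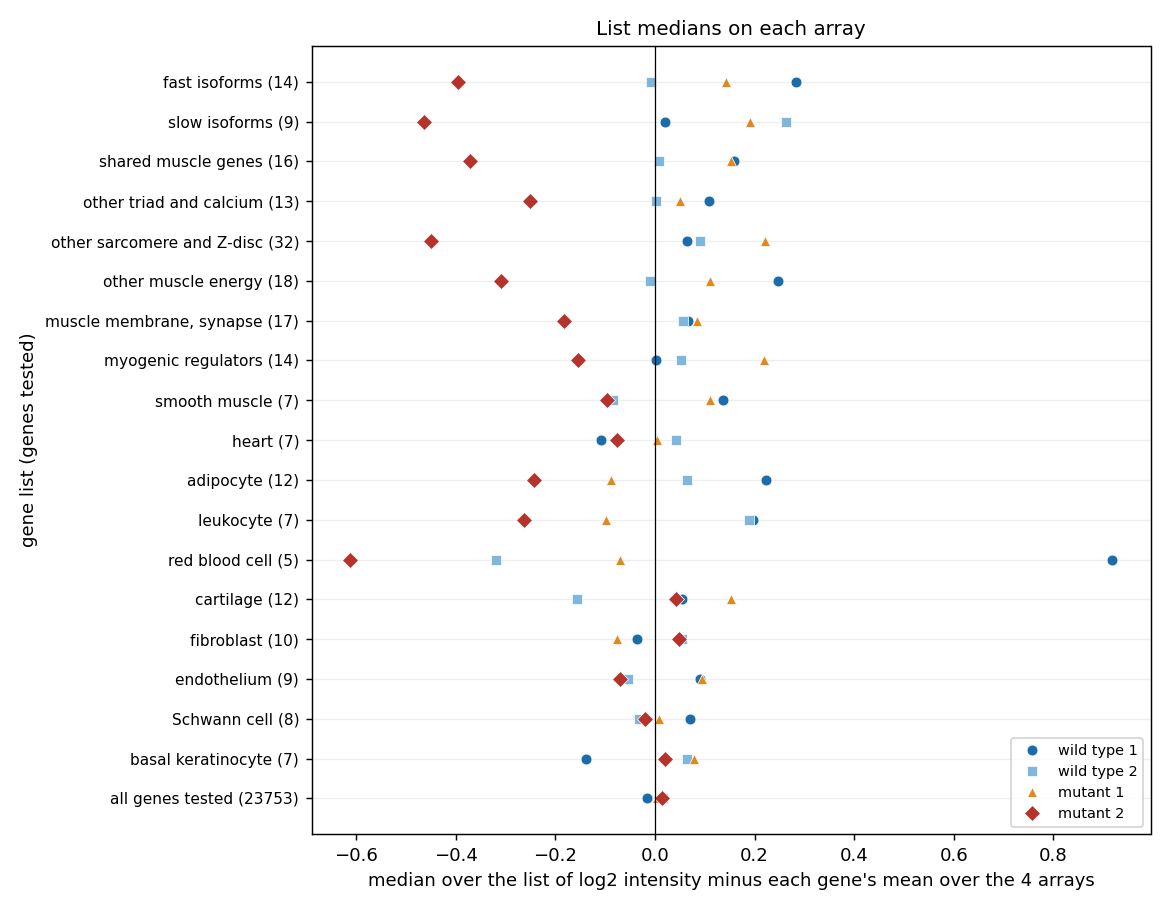
Median over each gene list (y axis, with the number of genes tested) of log2 intensity minus each gene's mean over the 4 arrays (x axis); a marker is 1 mouse, and the smooth muscle row holds the 7 defining genes. The fast, slow and shared muscle genes have mutant 2 at -0.40, -0.46 and -0.37, the red blood cell genes have wild type 1 at 0.92, and all 23753 genes tested lie near 0 on every array.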

How the data were processed

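Total RNA of 4 whole ears was labelled with Cy3 from 100 ng each and hybridised to 1-colour Agilent arrays on 1 slide, read in 1 scan, per the labels' protocols and the file headers. Per the file headers, Agilent Feature Extraction (version 10.7.3.1) made the deposited processed intensity of each spot by subtracting background, without scaling between arrays; positions are on mm9 (NCBI37). The deposited mean signal and local background are uncorrected intensities, used for the normexp alternative. The deposited flags, per the file headers, mark each spot as well above background or as an outlier. The series table deposited by the authors holds a linear ratio of each spot to the median of its array, found from the values, and served as an alternative.

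From these, 3671 control spots and outlier spots were left out, log2 intensity minus the 75th percentile of each array was taken, and spots of a probe were averaged. A probe was tested when well above background on both arrays of a group: 33664 probes (60.6%), 23753 genes, each by its brightest tested probe. Differences were fitted over all genes with limma 3.58.1 in R 4.3.3 (lmFit, eBayes, two-sided, Benjamini-Hochberg, threshold 0.05; residual df 2, prior df 2.51, median SE 0.13), with no replicate block. The procedure was tested on simulated data. The damaged corner of the mutant 2 array covers rows up to 120 and columns from 141, with 2720 spots; a left-out corner was an alternative, as were other backgrounds, scalings, filters, probe rules, blocks and the leaving out of each mouse. Only 4 arrays limit the precision. The 40 genes and all lists were chosen with earlier results of these data known. Every gene is named; values by ear are given for the 6 fast, 6 slow and 8 shared genes with the largest absolute difference, for Myh8, and for genes singled out after their values were seen (Myh2, Tpm3, Casq1, Casq2, Tnnc2). Of other muscle lists the top 4 and of other cell types the top 2 are named, with Synpo2 and Tpm1 added after their values were seen. Promoter letters came from a RefSeq table and probe letters from the arrays' design.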

Additional observations from a re-analysis of the deposited data

How the results depend on the processing

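The count of the 40 genes called was 0 as reported and under each of 17 alternatives. The medians of the 40 genes and of the fast, slow and shared genes were all below 0 in 16 of them, the exception being the fit without mutant 2. Many of these 16 are not separate checks of the medians. The 2 changed filters, the trended robust eBayes, weights on the arrays and both blocks left all these medians as reported. The series table gave the same medians as centring on the array median. Against 4 genes called over the whole array, the count was 2 with quantile normalization, 2 with the scaling percentile taken over detected probes alone, 1 without a filter, 1 with probes above background on all 4 arrays, 14 with a trended robust eBayes, and between 0 and 80 with a mouse left out. Against 7 probes called, the counts were 1 without a filter, 2 with the stricter filter, 35 with the trended robust eBayes, and between 0 and 162 with a mouse left out.

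With the replicate number as a block 1 gene and 1 probe were called; same-numbered mice deviated in opposite directions (correlation -0.19), and the crossed pairing, chosen after seeing the data, also gave 1 gene and 1 probe. Neither block changed the call of any of the 40 genes. With a mouse left out the medians ran from -0.53 to 0.026 for the 40 genes, -0.53 to 0.041 for fast, -0.67 to 0.12 for slow, -0.49 to 0.026 for shared and -0.38 to 0.075 for other muscle genes, and the fast minus slow median from -0.29 to 0.20. A lone mouse in a group is then assumed to vary like the other group. Without mutant 2 the difference was above 0 in 23 of the 40 genes. Ranges were followed only for the genes chosen by size for values by ear and for Myh8. Those that moved above 0 were Mylpf 0.072 (range -0.71 to 0.072), Tnnc1 0.13 (-1.08 to 0.13) and Myl2 0.45 (-0.80 to 0.45). Tnnt1 0.12 (-0.42 to 0.12), Des 0.031 (-0.68 to 0.031) and Actn2 0.092 (-0.54 to 0.092) did as well. Myl2 was also at 0.0061 without wild type 2, and Actn2 at 0.051 with the mean of all its tested probes, of which 1 was dim. The cause was not tested. With 2 mice per genotype and 1 of the ears apart from the rest, differences of the size seen in these genes could not be separated from the spread between mice.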
